A study of Homo sapiens with 4 samples.

Results

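The genes described are 10 components of the NF-kB pathway, of 51103 genes in the deposited tables: the 5 subunit genes NFKB1, NFKB2, RELA, RELB and REL, the inhibitor genes NFKBIA and NFKBIE, and TNFAIP3, BIRC3 and TNFAIP2, which NF-kB is known to induce. They were chosen by gene name, and each name matched 1 row. NF-kB is a family of dimeric transcription factors. Inhibitor proteins of the IkB type hold the dimers in the cytoplasm until the IKK kinases mark those inhibitors for destruction by the proteasome. The freed dimers then bind kappa B sites and induce, among other genes, their own inhibitors and subunits, which makes the response self-limiting. In gastric epithelium the pathway is best known for the response to Helicobacter pylori and to inflammatory cytokines.

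The libraries come from AGS, an established human gastric adenocarcinoma line grown in DMEM with fetal bovine serum. In the FGF2 group (2 libraries) cells received recombinant human FGF2, a fibroblast growth factor, at 20 ng/mL and were harvested after 24 h. The other group (2 libraries) is called NC, a name the labels leave unexplained, and the treatment text attached to it also describes FGF2, so the actual handling of those cells is unknown here. Separate cultures are not mentioned for the libraries of a group. Polyadenylated RNA was sequenced, and the kit named in the labels does not mark the strand.

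Sequencing depth was 13790335 and 27598608 counts for FGF2 and 14073340 and 27325697 counts for NC. The shallower library exceeded the deeper one at 2 of 22043 detected genes in the FGF2 group and 2 of 22485 in the NC group. Such nesting is what a deeper run that includes the shallower one gives, so each group was treated as 1 sample (n = 1 per group) and no replicate check exists for any difference below. Fold changes use library 2. Each is repeated in a pair of read sets with no read in common, library 1 and the remainder of library 2, called the other reads. Of 7 epithelial markers, summing to 444.4 and 438.4 FPKM in the FGF2 libraries and 487.1 and 494.3 FPKM in the NC libraries, the keratin genes KRT8, KRT18 and KRT19 stood at 25.4 to 270.3 FPKM and were the only 3 at 1 FPKM or more in all libraries. KRT8 stood at 193.6 and 190.6 FPKM with FGF2 and at 264.9 and 270.3 FPKM in NC. KRT19 differed in the opposite direction, at 48.5 and 47.6 FPKM with FGF2 and 25.4 and 27.3 FPKM in NC. KRT18 was at 201.2 and 199.1 FPKM with FGF2 and at 193.5 and 193.0 FPKM in NC. EPCAM stood at 0.576 and 0.518 FPKM with FGF2 and at 0.846 and 1.19 FPKM in NC. CLDN4 was at 0.386 and 0.462 FPKM with FGF2 and at 0.574 and 0.654 FPKM in NC. CDH1, which encodes E-cadherin, was at 0.0352 and 0.0235 FPKM with FGF2 and at 0.196 and 0.118 FPKM in NC. The epithelial transcription factor gene ELF3 stood at 0.171 and 0.166 FPKM in the FGF2 libraries and at 1.62 and 1.80 FPKM in the NC libraries. Summed over 8 leukocyte markers the level was 0.424 and 0.953 FPKM in the FGF2 libraries and 1.23 and 1.14 FPKM in the NC libraries, and CD3E, LYZ and CD68 were at 0 counts in all 4 libraries. Summed over 9 fibroblast markers it was 84.3 and 83.8 FPKM in the FGF2 libraries and 141.4 and 144.6 FPKM in the NC libraries, nearly all from COL1A1, PDGFRB and THY1, with COL1A2 and FAP at 0 counts in all 4. The part of these marker differences in the results below was not tested.

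Stretches of sequence that match kappa B sites, which NF-kB is known to bind in its own genes, are shown first. RefSeq start site windows (GRCh38.p14, 250 bases before to 50 after each start) were matched for 8 of the 10 genes, all but RELB and NFKBIE, with 12 windows in all. The windows were searched on both strands for the classical kappa B consensus, a 10-base motif. At least 1 match was found in 6 of the 8 genes, against 7.09% of the 27305 genes in the table, and in 7 of the 12 windows, against 5.91% of 35116 windows. Of the related genes described further below, 4 of 4 other IkB genes and 14 of 29 other target genes had a match. So did 0 of 3 genes of the IKK list, 2 of 21 receptors, adaptors and kinases and 2 of 11 ubiquitin enzymes. Matches are thus not particular to the 10 genes, which were chosen as parts of the pathway. A match describes letters and not a bound site. In the windows below, printed 5′ to 3′ along the gene's strand, capitals mark the matches. The NFKBIA window is chr14:35404700-35404999 (minus strand), the TNFAIP3 window is chr6:137867009-137867308 (plus strand) and the NFKB2 window, the second of its 3 windows, is chr10:102394328-102394627 (plus strand). These genes are shown because they are the ones in which every FGF2 read set differed from every NC read set by at least 1.2-fold in 1 direction.
NFKBIA: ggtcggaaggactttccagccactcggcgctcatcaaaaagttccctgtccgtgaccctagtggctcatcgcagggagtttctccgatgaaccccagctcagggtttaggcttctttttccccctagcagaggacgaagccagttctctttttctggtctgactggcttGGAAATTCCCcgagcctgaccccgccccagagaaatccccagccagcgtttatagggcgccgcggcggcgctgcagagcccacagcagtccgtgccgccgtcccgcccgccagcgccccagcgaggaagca
TNFAIP3: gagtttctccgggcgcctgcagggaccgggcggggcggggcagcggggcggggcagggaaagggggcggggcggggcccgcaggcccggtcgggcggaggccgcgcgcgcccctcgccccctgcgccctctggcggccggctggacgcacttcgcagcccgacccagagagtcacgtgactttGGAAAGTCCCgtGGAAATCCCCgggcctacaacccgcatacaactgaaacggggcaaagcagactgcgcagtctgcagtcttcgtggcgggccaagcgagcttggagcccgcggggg
NFKB2: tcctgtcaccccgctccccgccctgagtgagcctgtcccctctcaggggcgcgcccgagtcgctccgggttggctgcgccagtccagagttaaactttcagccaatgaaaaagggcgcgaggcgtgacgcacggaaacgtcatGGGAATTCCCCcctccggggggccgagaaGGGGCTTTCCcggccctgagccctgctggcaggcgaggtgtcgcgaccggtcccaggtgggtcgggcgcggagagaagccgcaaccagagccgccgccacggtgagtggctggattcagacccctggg

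The single match of NFKBIA began 81 bases before the start. TNFAIP3 had a pair of matches, beginning 67 and 55 bases before it. In the NFKB2 window the first run of capitals holds overlapping matches that begin 107 and 106 bases before the start, and a further match begins 78 bases before it. For 3 genes that did not meet that rule, 1 match each is shown with its flanks, so that it can be set beside those above.
NFKB1: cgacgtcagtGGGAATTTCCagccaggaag
REL: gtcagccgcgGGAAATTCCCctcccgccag
BIRC3: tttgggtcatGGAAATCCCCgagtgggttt

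These lie at chr4:102501310-102501319, chr2:60881528-60881537 and chr11:102317285-102317294 (plus strand each, coordinates of the capitals). The REL match shown and the NFKBIA match hold the same 10 letters, and so do the BIRC3 match shown and the second TNFAIP3 match. REL and BIRC3 each have a further match with other letters that is not shown, so the likeness depends on the match chosen. No match was found in the windows of RELA and TNFAIP2.

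**Figure D1:**
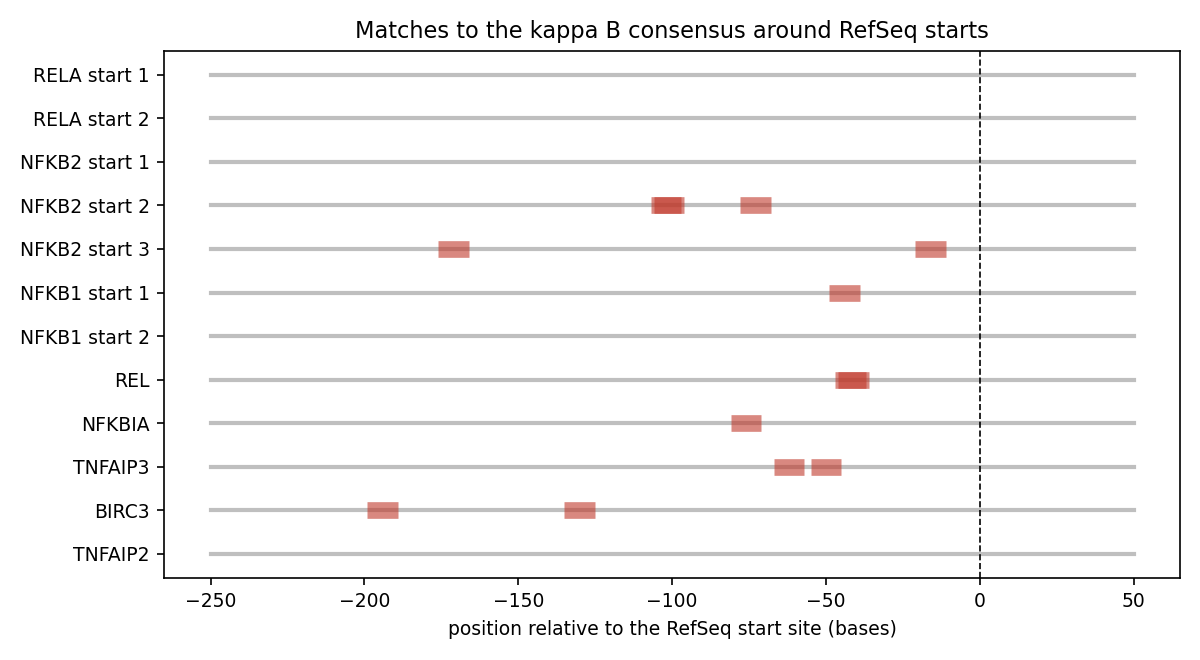
Matches to the kappa B consensus (red bars, 10 bases each, darker where they overlap) in 12 RefSeq start site windows of 8 genes, against the distance from the start in bases (grey line, 250 bases before to 50 after). All matches lie before the start, at 199 to 21 bases from it, and the windows of RELA and TNFAIP2, the first NFKB2 window and the second NFKB1 window hold none.

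With FGF2, the inhibitor gene NFKBIA and the subunit gene NFKB2 were lower and the deubiquitinase gene TNFAIP3 was higher, while the other 7 genes met neither bound. To be called, a gene needed a gap of at least 1.2-fold, in 1 direction, between every FGF2 read set and every NC read set. It also needed an average of 50 counts or more per read set, which all 10 genes had. Of the 10 genes 1 was higher, beside 12.7% of the 11000 genes tested, and 2 were lower, beside 13.4%. At 1.5-fold, 0 of the 10 were higher (3.14% of all) and 0 lower (5.17% of all). These shares are 345 and 569 genes, and scaling by total counts alone gave 264 and 718. The read sets of the groups did not overlap at 7 of the 10 genes, 2 higher (37.8% of all) and 5 lower (31.2% of all), so non-overlap alone is common here. Among these, the nearest read sets of RELA and RELB were only 0.0012 and 0.00028 apart on the log2 scale, so they practically touch. The median log2 fold change of the 10 genes was -0.17, beside 0.03 over all genes tested. With 10 genes, these counts do not stand apart from the background, and the values of single genes follow. In bulk RNA, fewer cells that express a gene and less RNA per cell cannot be told apart.

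Among the inhibitors, NFKBIA (ENSG00000100906, chromosome 14, 35401511 to 35404749, minus strand, GRCh38) encodes IkB alpha, the inhibitor that NF-kB re-makes fastest after activation. It stood at 12.8 and 14.4 FPKM in the FGF2 libraries, against 24.8 and 26.1 FPKM in the NC libraries. Both FGF2 values lay far below both NC values. The log2 fold change was -0.77 (95% counting interval -0.89 to -0.65), with -0.85 in library 1 and -0.70 in the other reads of library 2. Of the 11000 genes tested, 4.87% had a lower value. The nearest FGF2 and NC read sets were 0.56 apart on the log2 scale, just short of the 0.58 of the 1.5-fold bound. NFKBIA passed that bound when FGF2 library 1, FGF2 library 2 or NC library 1 was left out, or when counts were scaled by their total only. Leaving out a library puts 1 value in place of 2 read sets, which is mostly an easier rule. Leaving out library 1 removes no reads, because library 2 holds them.

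NFKBIE, which encodes IkB epsilon, an inhibitor that preferentially binds dimers with RELA and REL, did not follow. It stood at 9.30 and 8.40 FPKM in the FGF2 libraries, against 9.33 and 9.07 FPKM in the NC libraries. The read sets of the groups overlapped. Its log2 fold change was -0.03 (-0.19 to 0.14), with 0.09 in library 1 and -0.15 in the other reads, so no direction was detectable. On the FPKM scale NFKBIE stood at 0.725 and 0.582 of the NFKBIA level in the FGF2 libraries and at 0.376 and 0.348 in the NC libraries. The summed level of both inhibitors was 22.1 and 22.8 FPKM in the FGF2 libraries and 34.1 and 35.2 FPKM in the NC libraries.

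Among the subunits, NFKB2 (ENSG00000077150, chromosome 10, 102394110 to 102402529, plus strand) encodes the p100 precursor of p52, the subunit of the non-canonical branch. It stood at 14.2 and 13.7 FPKM in the FGF2 libraries, against 19.5 and 19.8 FPKM in the NC libraries. The read sets of the groups did not overlap. The log2 fold change was -0.45 (-0.54 to -0.36), with -0.37 in library 1 and -0.53 in the other reads. RELB, whose product pairs with p52, stood at 7.84 and 6.91 FPKM in the FGF2 libraries and at 8.43 and 8.42 FPKM in the NC libraries. Its log2 fold change of -0.20 (-0.36 to -0.04) was unevenly spread over the reads, with -0.01 in library 1 and -0.41 in the other reads. The FGF2 read sets of RELB differed by 0.41 on the log2 scale, more than the groups did, and RELB met neither bound.

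The subunits of the canonical dimer differed little. RELA (ENSG00000173039, chromosome 11, 65653596 to 65663094, minus strand), which encodes the transactivating subunit p65, stood at 22.1 and 23.5 FPKM in the FGF2 libraries and at 20.4 and 22.0 FPKM in the NC libraries. The FPKM values of its groups were close to touching, and the log2 fold change was 0.18 (0.11 to 0.25), short of 1.2-fold. NFKB1, which encodes the p105 precursor of p50, stood at 12.1 and 11.5 FPKM in the FGF2 libraries and at 11.4 and 11.4 FPKM in the NC libraries. Its log2 fold change was 0.09 (0.00 to 0.18), with 0.19 in library 1 and -0.01 in the other reads, and the read sets overlapped. REL, a subunit best known from lymphoid cells, was the lowest of the 10 genes at 0.545 and 0.556 FPKM in the FGF2 libraries and 0.674 and 0.736 FPKM in the NC libraries. Its log2 fold change was -0.32 (-0.59 to -0.05), at 202 counts in FGF2 library 2 and 265 in NC library 2, and met neither bound. REL shares 43.3% of its exon sequence with AC010733.2, a gene on the same strand that has 0 counts in all 4 libraries, so its level is uncertain.

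**Figure D2:**
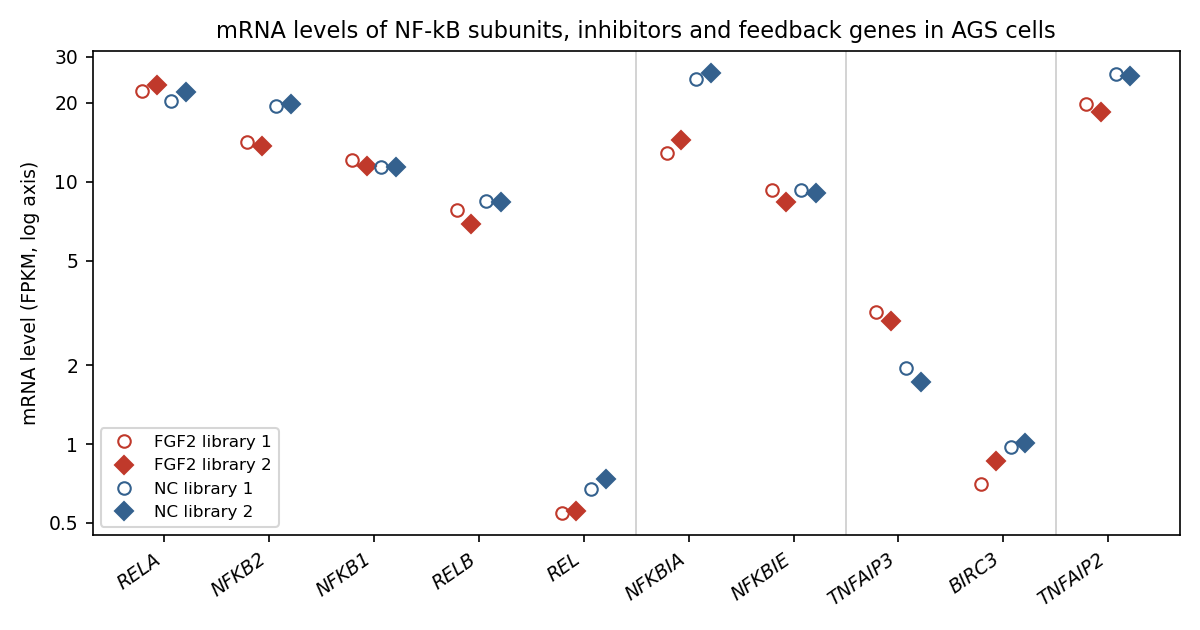
FPKM (log axis) of the 10 genes in each library, grouped from left to right as subunits, inhibitors, feedback genes and TNFAIP2, with FGF2 libraries in red to the left of NC libraries in blue. Libraries of a group share reads and are 1 sample. NFKBIA and NFKB2 sit lower and TNFAIP3 higher in the FGF2 libraries, while NFKB1 and NFKBIE nearly coincide.

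The subunit genes kept their order of levels in all 4 libraries, RELA over NFKB2, NFKB1, RELB and REL. RELA made up 39.0% and 41.9% of their summed FPKM in the FGF2 libraries and 33.8% and 35.3% in the NC libraries. NFKB2 made up 24.9% and 24.4% in the FGF2 libraries and 32.3% and 31.7% in the NC libraries. Their summed level was 56.8 and 56.1 FPKM in the FGF2 libraries and 60.4 and 62.4 FPKM in the NC libraries. Ratios within a library need no scaling between libraries. The ratio of NFKB2 to NFKB1, the genes of the precursor proteins, was 1.17 and 1.19 in the FGF2 libraries and 1.72 and 1.73 in the NC libraries. NFKBIA stood below RELA in the FGF2 libraries, at a ratio of 0.579 and 0.613, and above it in the NC libraries, at 1.21 and 1.18. These ratios show unequal differences between genes and not which of them differed.

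**Figure D3:**
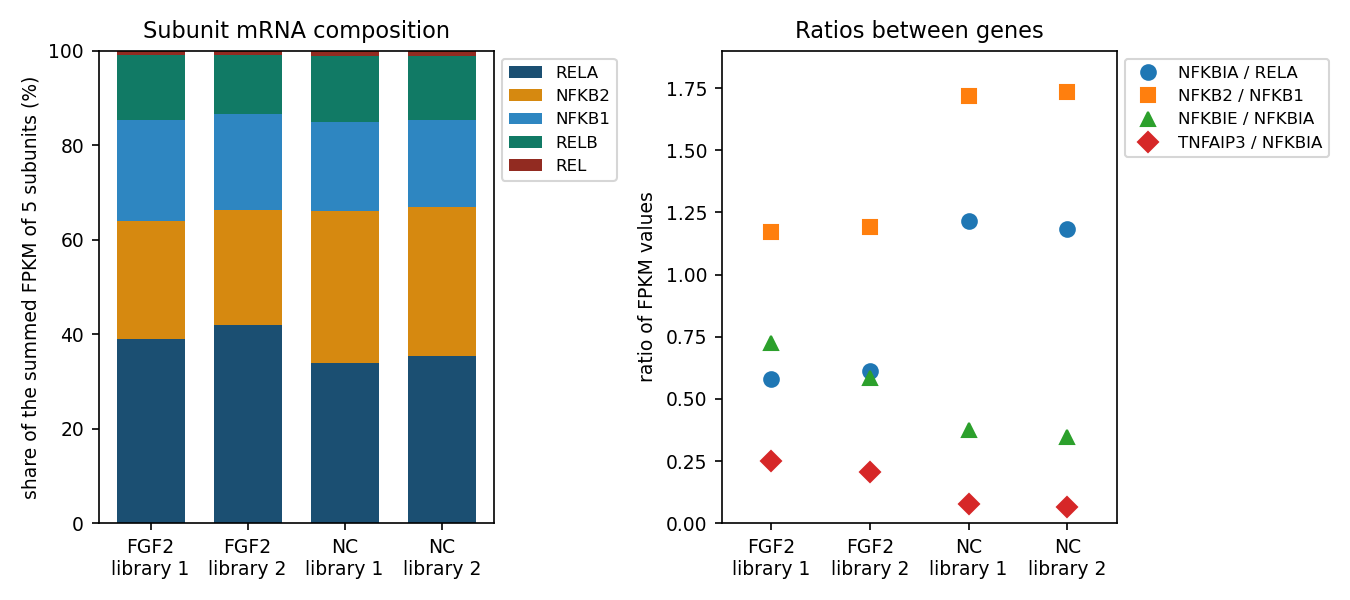
Left, share (%) of each subunit gene in the summed FPKM of the 5 subunit genes per library. Right, ratios of FPKM values between genes per library. The NFKB2 share is 24.4% to 24.9% in the FGF2 libraries and 31.7% to 32.3% in the NC libraries, and the NFKBIA to RELA ratio lies below 1 only in the FGF2 libraries.

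TNFAIP3 (ENSG00000118503, chromosome 6, 137867188 to 137883312, plus strand) encodes A20, an enzyme that edits ubiquitin chains and shuts down signalling to IKK. It was the only one of the 10 genes to be higher by the 1.2-fold rule, at 3.20 and 2.95 FPKM in the FGF2 libraries, against 1.96 and 1.72 FPKM in the NC libraries. The lower FGF2 value lay well above the higher NC value. Its counts were 223 and 411 in the FGF2 libraries and 139 and 237 in the NC libraries. The log2 fold change was 0.87 (0.63 to 1.10), with 0.80 in library 1 and 0.96 in the other reads, and 97.9% of the genes tested had a lower value. The NC read sets of TNFAIP3 differed by 0.42 on the log2 scale and its FGF2 read sets by 0.27. Over all genes tested, the 95th percentile of this difference in NC was 0.41, so the TNFAIP3 reads were uneven too. The nearest FGF2 and NC read sets were 0.54 apart on the log2 scale, so TNFAIP3 too fell short of the 1.5-fold bound. It passed that bound when FGF2 library 1, FGF2 library 2 or NC library 1 was left out, which as for NFKBIA is mostly an easier rule. On the FPKM scale TNFAIP3 stood at 0.249 and 0.205 of the NFKBIA level in the FGF2 libraries and at 0.0789 and 0.0658 in the NC libraries, so these feedback inhibitors of the pathway, both with kappa B matches before the start, differed in opposite directions. An antisense gene overlaps 1.88% of the TNFAIP3 exon sequence.

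BIRC3, which encodes the ubiquitin ligase cIAP2, was low, at 0.704 and 0.858 FPKM in the FGF2 libraries and 0.974 and 1.01 FPKM in the NC libraries. Its 73 counts in FGF2 library 1 were the fewest of any of the 10 genes in any library. The log2 fold change was -0.15 (-0.45 to 0.14), with -0.37 in library 1 and 0.02 in the other reads, so a difference was not detectable at this depth. BIRC2, the tandem paralog that encodes cIAP1 and starts 7807 bases after BIRC3 ends, was at least 1.2-fold higher, at 17.0 and 18.3 FPKM in the FGF2 libraries, against 12.9 and 13.4 FPKM in the NC libraries (log2 fold change 0.53, 0.44 to 0.62). It is named as the neighbour of BIRC3 and was chosen after its values were seen. The ratio of BIRC3 to BIRC2 was 0.0414 and 0.0469 in the FGF2 libraries and 0.0753 and 0.0754 in the NC libraries.

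TNFAIP2, a gene named for its induction by TNF whose product takes part in membrane nanotube formation, stood at 19.8 and 18.5 FPKM in the FGF2 libraries, against 25.8 and 25.3 FPKM in the NC libraries. The read sets of the groups did not overlap. The log2 fold change was -0.37 (-0.44 to -0.29), with -0.29 in library 1 and -0.45 in the other reads. Its nearest read sets were 0.23 apart on the log2 scale, against 0.26 for the 1.2-fold bound, so it met neither bound.

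**Figure D4:**
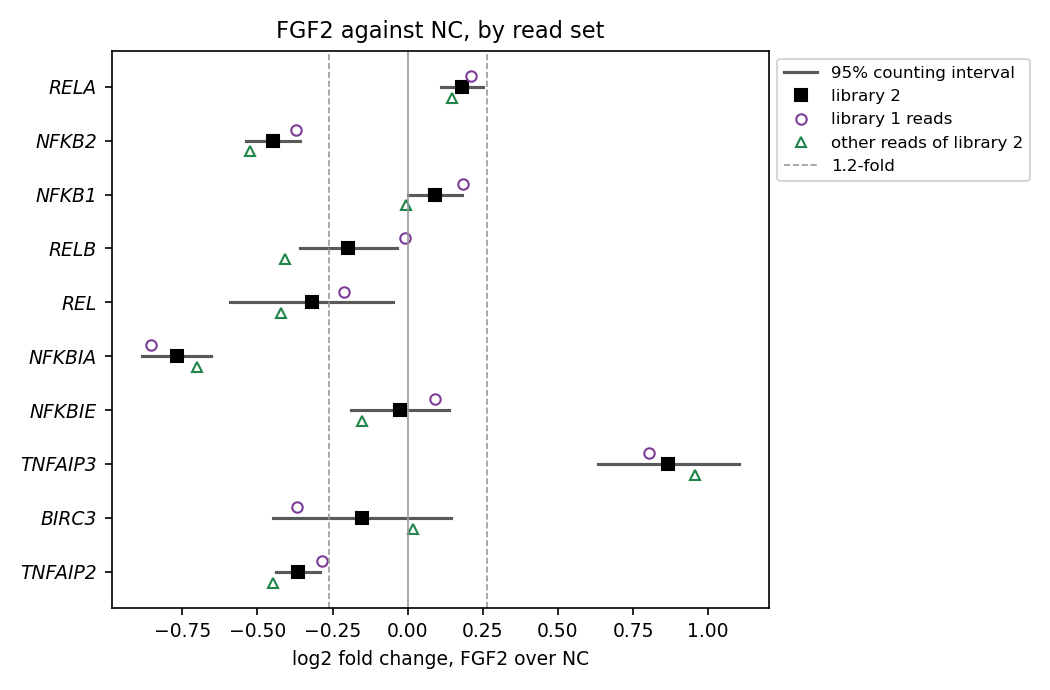
Log2 fold change, FGF2 over NC, of each gene from library 2 (squares, with 95% counting intervals), in library 1 (circles) and in the remainder of library 2 (triangles). Dashed lines mark 1.2-fold. For NFKBIA, NFKB2, TNFAIP2 and TNFAIP3 all values lie beyond 1.2-fold on 1 side, while those of NFKB1, NFKBIE and BIRC3 cross 0.

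The order of the 10 genes by FPKM shifted only in its upper part. In the FGF2 libraries RELA came first, with 22.1 and 23.5 FPKM, and TNFAIP2 next, with 19.8 and 18.5 FPKM, while NFKB2 and NFKBIA could not be ordered because their values interleave. In the NC libraries NFKBIA and TNFAIP2 came first and interleaved at 24.8 to 26.1 FPKM, ahead of RELA and NFKB2. Below these, all 4 libraries had the order NFKB1, NFKBIE, RELB, TNFAIP3, BIRC3 and REL.

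Outside the target genes, 43 receptors, adaptors, kinases, ubiquitin enzymes and further IkB genes were listed, of which 40 had enough counts, and 4 were at least 1.2-fold higher and 1 lower, with a median log2 fold change of -0.02. Over all genes tested 12.7% were higher and 13.4% lower by the same rule, so the share higher does not set these genes apart. The share lower, 1 of 40, was below that of all genes, and this difference was not tested. Among the other IkB proteins 0 of 4 met either bound. NFKBIB, which encodes IkB beta, was at 0.18, NFKBID at -0.20, NFKBIZ at -0.08, and BCL3, whose product binds p50 and p52 dimers in the nucleus, at -0.35. Of the IKK complex, CHUK was at 0.07 and IKBKB at 0.15, which encode its catalytic subunits, and IKBKG, which encodes its scaffold NEMO, was at -0.07. MAP3K14, which encodes NIK, the kinase that starts p100 processing, was at least 1.2-fold lower, at 9.38 and 9.43 FPKM in the FGF2 libraries, against 14.6 and 14.4 FPKM in the NC libraries (log2 fold change -0.52, -0.62 to -0.43). It shares 12.3% of its exon sequence with an antisense gene, so its count is uncertain.

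Among 20 receptors, adaptors and kinases measured, 2 were at least 1.2-fold higher and 0 lower, beside 12.7% and 13.4% of all genes. Of these TLR4, the receptor for bacterial lipopolysaccharide, was past 1.5-fold, at 3.22 and 3.15 FPKM in the FGF2 libraries, against 1.56 and 1.61 FPKM in the NC libraries (log2 fold change 1.06). Ubiquitin ligases and deubiquitinases had 2 of 12 higher and 0 lower, with a median of 0.11, and are also too few to read against those shares.

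Of 15 other known NF-kB target genes measured, 3 were at least 1.2-fold higher, beside 12.7% of all genes, and 3 lower, beside 13.4%, with a median log2 fold change of 0.01. At 1.5-fold 2 were higher and 2 lower, beside 3.14% and 5.17% of all genes. With 15 genes nothing is read from these shares. The chemokine gene CCL2 was lowest, at 4.02 and 4.21 FPKM in the FGF2 libraries, against 15.5 and 16.4 FPKM in the NC libraries (-1.87, -2.09 to -1.67), followed past 1.5-fold by the macrophage growth factor gene CSF1 (-0.79, -0.89 to -0.68). The survival gene IER3 was at 1.13 (1.02 to 1.25) and PLAU, which encodes urokinase, at 1.09 (1.00 to 1.18), both past 1.5-fold. IER3 shares 26.5% and PLAU 31.1% of exon sequence with genes on the opposite strand, so their counts are uncertain. Among the target genes past 1.5-fold, IER3 and PLAU were thus higher and CCL2 and CSF1 lower. TNFAIP3, which was higher, and NFKBIA and NFKB2, which were lower, met only the 1.2-fold bound. Target genes past 1.2-fold alone are not named, so the named genes are not the whole pattern.

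**Figure D5:**
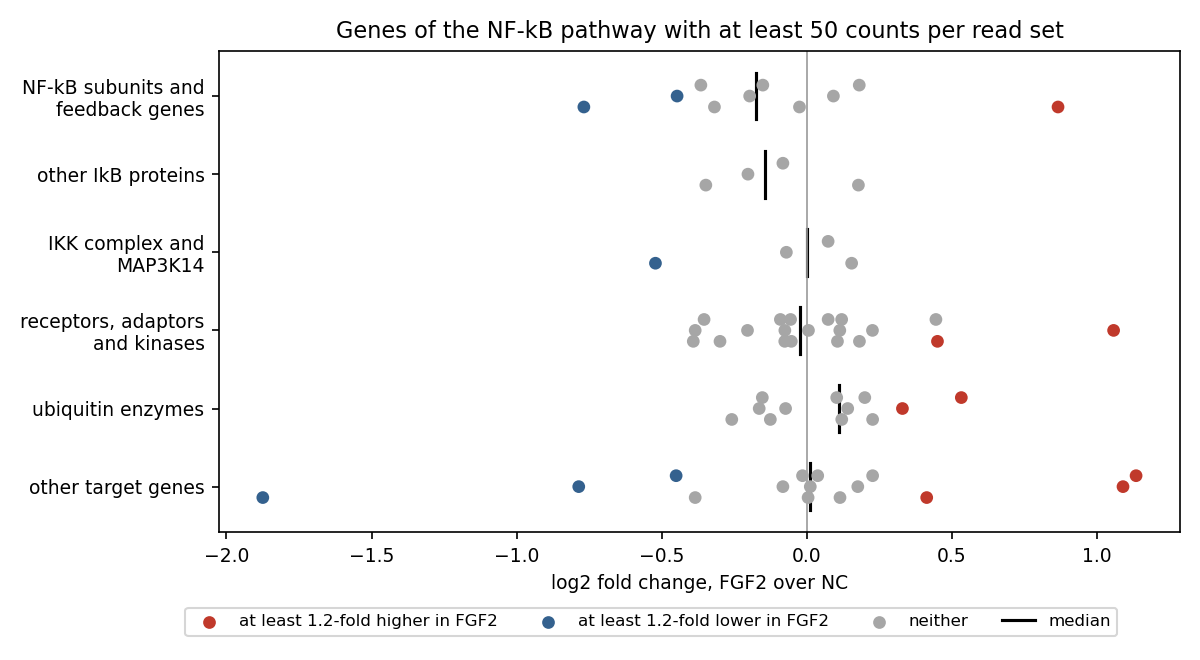
Log2 fold change, FGF2 over NC, of the 10 genes and of 5 lists of pathway genes that met the count minimum. Each point is a gene, red or blue where every FGF2 read set differs from every NC read set by at least 1.2-fold in 1 direction, and black bars are medians. List medians lie between -0.17 and 0.11, CCL2 lying lowest at -1.87.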

How the data were processed

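Polyadenylated RNA of AGS cells was sequenced in 4 libraries, grouped by title and treatment label. The authors deposited raw counts per gene and FPKM values for each library. The submitters' processing notes list HISAT2, HTSeq 0.13.5 and GRCh38, without an annotation release. The deposited FPKM is the count divided by length and library total: of 11923 genes with over 20 counts in every library, the implied length equalled the merged exon length of GENCODE release 29, once rounded to a whole base, at 99.5%, so coordinates are from that release.

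Library 2 less library 1 gave a second, disjoint read set per group. Read sets and libraries were scaled by TMM (edgeR 4.0.16) over the 15030 genes kept by filterByExpr. Fold changes are log2 ratios of scaled counts with 0.5 added, with 95% exact Clopper-Pearson intervals, which cover counting error only. With 1 sample per group no test was made. The 1.5-fold and 1.2-fold rules, on the 11000 genes averaging 50 counts or more per read set, were tested on simulated data. The 10 genes, the lists and these rules were chosen with earlier results of these data known. Beyond the 10 genes, the text names the IKK and IkB genes and at most the 3 highest and 3 lowest genes of each list past 1.5-fold. BIRC2, CXCL8, ICAM1 and the target genes at 0 counts fall outside this rule and were chosen after their values were seen. SOD2, with more than 1 row, was left out. Alternatives were DESeq2 1.42.0 size factors, total count, other count minimums, read sets and added values, and each library left out.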

Additional observations from a re-analysis of the deposited data

How the results depend on the processing

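No paired analysis was possible because the libraries of a group share reads and the results come from no test. Across 13 alternatives each, the log2 fold change kept its sign for NFKBIA (-0.92 to -0.70), NFKB2 (-0.53 to -0.39), TNFAIP3 (0.54 to 1.00), TNFAIP2 (-0.45 to -0.26), REL, RELA and RELB (-0.41 to -0.00). It changed sign for NFKB1 and BIRC3 in 1 alternative each and for NFKBIE in 2. Other count minimums, protein-coding genes only and leaving out library 1 cannot change these values, so they check no sign. The 0 genes at least 1.5-fold higher became 1 (TNFAIP3) with the mean of both libraries or library 2 less library 1 alone, and 0 to 1 with 1 library left out. The 0 at least 1.5-fold lower became 1 (NFKBIA) under these, total-count scaling or FPKM ratios with 1 added, and 0 to 1 with 1 library left out. The 2 at least 1.2-fold lower became 4 with the mean of both libraries and 5 with library 2 less library 1 alone. Over all genes the 345 higher and 569 lower became 607 and 911 with the mean of both libraries, 685 and 1010 in the other reads of library 2, 586 and 1187 with no count minimum, and 122 and 179 at 2-fold. They were 936 lower at a minimum of 10 counts and 217 higher with FPKM ratios. The mean, the other reads and a left-out library give 1 value in place of 2 read sets, mostly an easier rule. A lower count minimum admits more genes, and 2-fold is a stricter bound. Other causes of these shifts were not tested. BIRC3 and REL, at 73 to 265 counts, are limited most by depth. Fits by edgeR, a replicate block and DESeq2 tests were planned only for separate libraries and were not run.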

Other observations

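Several inflammatory NF-kB target genes were near or below detection in both groups. Of 32 target genes matched, 17 had a mean under 50 counts per read set. That minimum belongs to the fold rules and is not a limit of detection, so some of the 17 were detected. CXCL5, CXCL10, PTGS2, BCL2A1 and TNFAIP6 had 0 counts in all 4 libraries. By counting error alone, 0 counts allow up to 3 counts, or 0.109 CPM in FGF2 library 2 and 0.110 CPM in NC library 2. CXCL8, which encodes the neutrophil chemokine interleukin-8, stood at 4.11 and 4.84 FPKM in the FGF2 libraries and at 4.97 and 4.55 FPKM in the NC libraries, and the groups overlapped. ICAM1 and CXCL8 were chosen after their values were seen. ICAM1, an adhesion molecule gene, stood at 13.4 and 13.6 FPKM in the FGF2 libraries and at 14.4 and 14.6 FPKM in the NC libraries, and shares 23.6% of its exon sequence with genes on the opposite strand. Its scaled read sets overlapped between the groups.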
